A study of Mus musculus with 14 samples.

Results

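Splicing factor genes were followed in the liver of mice given LPS (lipopolysaccharide, from the bacterial outer membrane) together with D-GalN (D-galactosamine, a sugar that blocks transcription in hepatocytes). The genes were taken by symbol: Srsf followed by a number, Hnrnp, Sf3a, Sf3b, Snrp, and Clk1 to Clk4. Symbols ending in -ps were left out. These symbols were chosen with earlier results of these data known. The rule gave 57 of the 55357 genes counted. Of these, 11 belong to the SRSF family, 20 to HNRNP, 9 to SF3, 13 to SNRP and 4 to CLK. The symbol rule also took in Snrpert, which the annotation gives as a processed pseudogene, and it is counted with SNRP.

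The 8 model samples came from C57BL/6 males injected intraperitoneally with LPS at 10 µg/kg and D-GalN at 300 mg/kg, a combination used to cause acute liver failure. The 6 control samples came from C57BL/6 males injected with normal saline. Mice of both groups were 5 to 6 weeks old and carried no stated genetic change, and livers were taken 24 h after the injection. Polyadenylated RNA was sequenced, and reads assigned to genes numbered 10329469 to 16639972 per model library and 7914120 to 14463540 per control library. Whether every sample came from its own animal is not given by the labels, so the p-values rest on the spread over samples, which may be technical. The counts are of whole liver, in which a change in the number of cells of a type and a change in RNA per cell cannot be told apart.

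Introns are removed from new transcripts by the spliceosome, which assembles stepwise from small nuclear ribonucleoproteins (snRNPs). SNRP proteins form the Sm ring and other core parts of these particles, and the SF3A and SF3B complexes hold the U2 snRNP at the branch point of the intron. SRSF proteins mostly promote the use of the exons they bind, HNRNP proteins coat the nascent transcript and often repress nearby splice sites, and CLK kinases phosphorylate the SRSF proteins and so release them from nuclear speckles. In mouse liver these regulators are known to matter for hepatocyte maturity, since mice without Srsf3 in hepatocytes have impaired hepatocyte maturation. Many SRSF and several HNRNP genes also make transcripts with a poison exon that are degraded, and gene-level counts do not separate these from coding transcripts.

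Most splicing factor genes that rose in model livers belong to the HNRNP family. Of the 56 genes with enough reads to test, 22 were higher in model livers (39.3%), 2 were lower (3.57%) and 32 were not called. A call means an adjusted p under 0.05 in edgeR's quasi-likelihood test, with Benjamini-Hochberg adjustment over all 12915 genes tested. Over all of those genes 47.9% were called, 26.6% higher and 21.3% lower in model livers. By family, 13 of 20 HNRNP genes were higher and 1 lower, 4 of 9 SF3 genes were higher and 0 lower, and 3 of 10 SRSF genes were higher and 0 lower. In the SNRP family 1 of 13 was higher and 1 lower, and 1 of the 4 CLK genes was higher and 0 lower. The median log2 fold change, model over control, was 0.64 for HNRNP, 0.61 for SF3, 0.29 for SRSF, 0.34 for CLK and -0.24 for SNRP, beside 0.0099 for all genes tested. A call with at least a 2-fold difference was made for 7 higher genes and 1 lower gene, where such calls made up 20.3% and 12.7% of all genes tested. The groups' ranges did not overlap for 9 genes, all higher in model livers. Over all genes tested such separation was found for 23.2%, 14.6% in the higher and 8.63% in the lower direction. These ranges are of values scaled with edgeR's TMM factors, 0.768 to 1.07 in model and 0.959 to 1.27 in control libraries. Over unscaled library totals some of the 9 genes overlap, Hnrnpa2b1, Hnrnpab, Hnrnpk and Sf3b1 among them. Srsf12 was too low to test, at 0 to 0.463 CPM (counts scaled to library size) in model and 0 to 0.0965 CPM in control livers. All 56 tested genes averaged at least 2.21 CPM in model and at least 2.77 CPM in control livers, both minima being those of Snrpn.

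**Figure D1:**
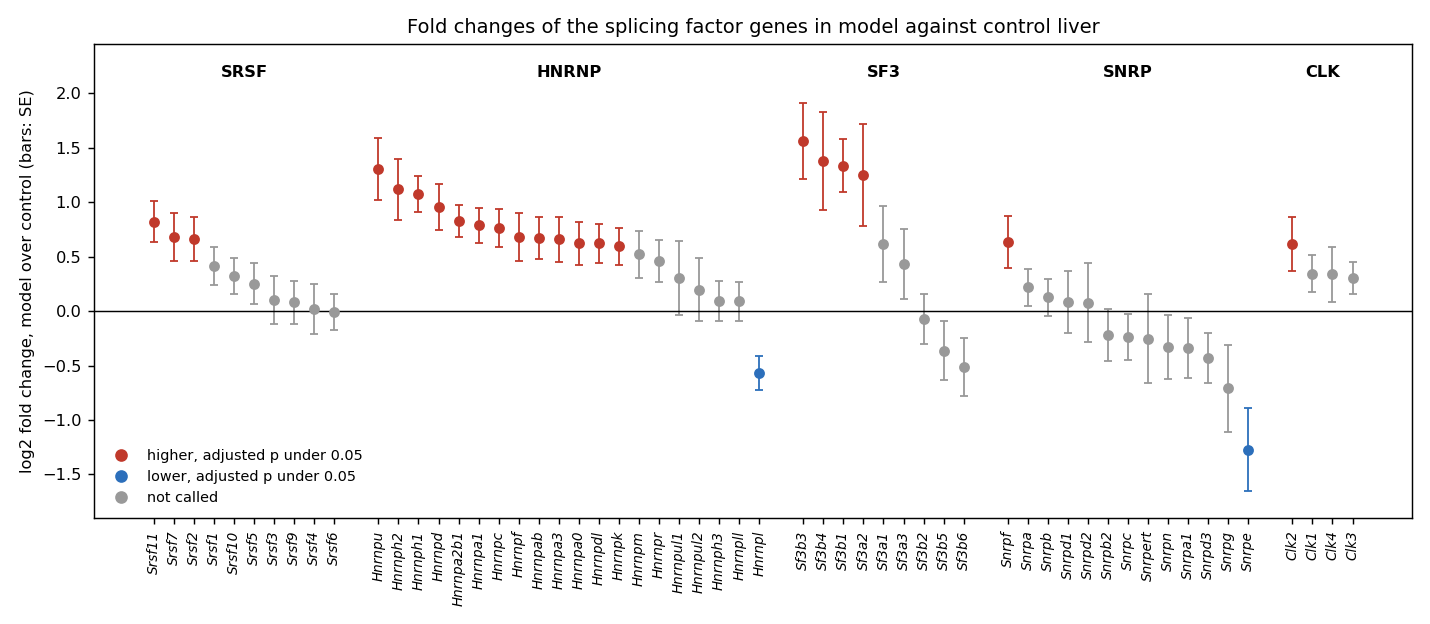
Log2 fold change of each tested gene, model over control, by family, with bars of 1 standard error from edgeR's quasi-likelihood fit (8 model and 6 control libraries). Red points were higher, blue points lower and grey points not called at an adjusted p under 0.05. The 13 HNRNP and 4 SF3 genes in red reach from 0.59 (Hnrnpk) to 1.56 (Sf3b3), and Snrpe lies lowest at -1.27.

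The sequence around the transcription start is printed for 6 genes, as examples picked by their fold changes. They are the 2 SF3 and the 2 HNRNP genes with the largest rise and a single matched start, and the 2 genes that were lower. Each runs from 250 bases before to 50 bases after the start, 5′ to 3′ on the gene's strand, from RefSeq on GRCm38.p6, which is not the build of the counts. Capitals mark matches, on either strand, to any of the motifs listed after the sequences.
Sf3b3, chr8:110846754-110847053, minus strand: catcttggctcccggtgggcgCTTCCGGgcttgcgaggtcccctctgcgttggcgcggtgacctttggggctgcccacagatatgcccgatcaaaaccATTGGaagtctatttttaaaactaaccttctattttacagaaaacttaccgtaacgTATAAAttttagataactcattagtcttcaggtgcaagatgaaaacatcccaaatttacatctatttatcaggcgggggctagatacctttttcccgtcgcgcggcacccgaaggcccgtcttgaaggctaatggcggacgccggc
Sf3b1, chr1:55027429-55027728, minus strand: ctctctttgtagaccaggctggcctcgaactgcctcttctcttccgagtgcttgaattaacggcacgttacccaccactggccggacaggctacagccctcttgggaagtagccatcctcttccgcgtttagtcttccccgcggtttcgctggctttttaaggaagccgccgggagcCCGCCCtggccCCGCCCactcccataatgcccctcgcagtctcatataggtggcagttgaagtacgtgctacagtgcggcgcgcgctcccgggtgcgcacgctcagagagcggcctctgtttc
Hnrnpu, chr1:178337766-178338065, minus strand: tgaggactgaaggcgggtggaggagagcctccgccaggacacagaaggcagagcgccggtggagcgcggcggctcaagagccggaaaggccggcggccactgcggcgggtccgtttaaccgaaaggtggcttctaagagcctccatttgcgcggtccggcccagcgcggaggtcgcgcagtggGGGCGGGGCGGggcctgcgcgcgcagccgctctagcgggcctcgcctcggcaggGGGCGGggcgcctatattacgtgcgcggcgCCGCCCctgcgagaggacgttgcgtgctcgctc
Hnrnph2, chrX:134600929-134601228, plus strand: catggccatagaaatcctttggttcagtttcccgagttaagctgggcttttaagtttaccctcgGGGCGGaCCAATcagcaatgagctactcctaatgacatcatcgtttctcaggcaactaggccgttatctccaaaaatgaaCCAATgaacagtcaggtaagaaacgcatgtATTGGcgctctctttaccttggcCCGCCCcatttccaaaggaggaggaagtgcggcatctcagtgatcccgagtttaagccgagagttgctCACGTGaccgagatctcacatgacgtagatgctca
Hnrnpl, chr7:28810640-28810939, plus strand: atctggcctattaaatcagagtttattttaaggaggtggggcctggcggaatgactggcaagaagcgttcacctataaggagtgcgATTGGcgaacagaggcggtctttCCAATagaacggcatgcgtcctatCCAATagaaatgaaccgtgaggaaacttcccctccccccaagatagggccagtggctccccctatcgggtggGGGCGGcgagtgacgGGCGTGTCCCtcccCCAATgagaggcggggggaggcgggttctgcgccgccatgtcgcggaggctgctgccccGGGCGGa
Snrpe, chr1:133610231-133610530, minus strand: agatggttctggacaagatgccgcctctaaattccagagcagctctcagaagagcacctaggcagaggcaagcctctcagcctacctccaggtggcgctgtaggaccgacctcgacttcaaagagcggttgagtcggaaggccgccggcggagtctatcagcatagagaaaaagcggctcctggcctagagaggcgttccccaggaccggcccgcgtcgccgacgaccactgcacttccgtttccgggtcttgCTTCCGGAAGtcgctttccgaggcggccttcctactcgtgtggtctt
The motifs searched were GGGANNNNCC (NF-kB), GAAANNGAAA (interferon response), TGANTCA (AP-1), TGACGTCA (CRE), CACGTG (E-box), CCGGAAG (ETS), CCAAT as it stands, TATAAA (the TATA box) and GGGCGG (the GC box), and overlapping matches were allowed. Motifs and genes were picked after the values were seen, so the matches are a description of letters in a window. Promoters were matched by symbol for 49 of the 57 genes, and those not matched were Clk1, Hnrnpll, Hnrnpul2, Sf3b4, Sf3b5, Snrpb, Snrpd1 and Snrpert. The ETS letters stood in 6 of the 7 SF3 promoters (85.7%), in all but that of Sf3b1, beside 9.93% of the promoters of all 27025 genes in the table. The CCAAT letters stood in 13 of 18 HNRNP promoters (72.2%), beside 41.1% of all genes. The GC box stood in 36 of the 49 promoters (73.5%), beside 38.2% of all genes. The median GC content was 61.0% over the 66 promoters of the matched genes, beside 52.7% over all 32851 promoters. The NF-kB letters stood in 17 of 49 (34.7%), beside 22.9% of all genes, and in 0 of the 7 SF3 promoters. The interferon response letters stood in 0 of 49, beside 3.99% of all genes.

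Most of the HNRNP genes rose. Hnrnpa2b1, whose product binds RNA in splicing and transport, had 321, 351 and 388 CPM (lowest, median and highest) in model livers, against 156, 200 and 228 CPM in control livers. In TMM-scaled CPM every model library lay above every control library. The log2 fold change was 0.83 (SE 0.15, edgeR adjusted p 0.000189). Hnrnph1, which binds G-rich sequences and regulates exon choice, had 44.0, 57.8 and 72.0 CPM in model livers, against 24.9, 26.8 and 35.7 CPM in control livers. Its ranges were also apart, and its log2 fold change was 1.07 (SE 0.17, edgeR adjusted p 3.93e-05). Hnrnpab had the highest level of the family per length, 62.2 CPM per kb of exon in model and 39.1 CPM per kb in control livers. It had 131, 158 and 254 CPM in model livers, against 93.5, 107 and 126 CPM in control livers, and no library of one group fell within the other (log2 fold change 0.67, SE 0.19, edgeR adjusted p 0.00794).

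Hnrnpu had the largest fold change of the family. Its product, a large nuclear protein also called SAF-A, binds chromatin-associated RNA and acts in splicing and chromatin organisation. It had 99.6, 136 and 253 CPM in model livers, against 32.5, 49.7 and 112 CPM in control livers. Control library 6, the highest control, reached into the model range, while the other 5 controls did not exceed 68.3 CPM (log2 fold change 1.30, SE 0.28, edgeR adjusted p 0.00109). Hnrnph2, a close relative of Hnrnph1 on the X chromosome, had 36.6, 47.3 and 87.7 CPM in model livers, against 15.1, 21.0 and 45.5 CPM in control livers. The groups overlapped, with 4 of 8 model libraries above the highest control (log2 fold change 1.12, SE 0.28, edgeR adjusted p 0.00332). Hnrnpd, also called AUF1, binds AU-rich elements and directs the decay of such mRNAs. It had 23.0, 29.9 and 41.8 CPM in model livers, against 10.7, 16.3 and 22.8 CPM in control livers, with ranges just apart (log2 fold change 0.95, SE 0.21, edgeR adjusted p 0.00121).

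The other 8 HNRNP genes that rose had log2 fold changes of 0.59 to 0.79. They were Hnrnpa1 (0.79), the classic antagonist of SRSF1 at 5′ splice sites, Hnrnpc (0.76), which measures transcript length and binds uridine tracts, Hnrnpf (0.68), Hnrnpa3 (0.66), Hnrnpa0 (0.62), Hnrnpdl (0.62) and Hnrnpk (0.59), which binds cytidine-rich RNA, besides Hnrnpab. Hnrnpa1 had 45.2, 66.7 and 74.5 CPM in model livers, against 31.8, 37.2 and 39.3 CPM in control livers. Hnrnpc had 110, 167 and 196 CPM in model livers, against 78.9, 98.2 and 102 CPM in control livers. Of these 8, ranges did not overlap for Hnrnpa1, Hnrnpc, Hnrnpk and Hnrnpab, and did for the other 4. Summed over the 20 genes, the family reached 1622 ± 217 CPM in model and 992 ± 131 CPM in control livers (SD, n = 8 and 6). The lowest model library, at 1421 CPM, lay above the highest control library, at 1205 CPM. These are TMM-scaled values, and over unscaled library totals the sums of the groups overlap.

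Hnrnpl moved the other way. Its product binds CA repeats and controls, among other exons, those of CD45 in T cells. It had 26.6, 32.2 and 42.8 CPM in model livers, against 41.6, 48.3 and 57.6 CPM in control livers, and 7 of 8 model libraries were below the lowest control. The log2 fold change was -0.57 (SE 0.16, edgeR adjusted p 0.00626). Its near relative Hnrnpll was not called, with 15.6 ± 2.67 CPM in model and 14.6 ± 2.87 CPM in control livers (SD, n = 8 and 6; log2 fold change 0.09, SE 0.18). Hnrnpm (0.52, SE 0.22) and Hnrnpr (0.46, SE 0.19) came near the threshold without passing it, with edgeR adjusted p of 0.06 and 0.0556. Hnrnpul1 (0.30, SE 0.34), Hnrnpul2 (0.20, SE 0.29) and Hnrnph3 (0.09, SE 0.18) were not called.

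**Figure D2:**
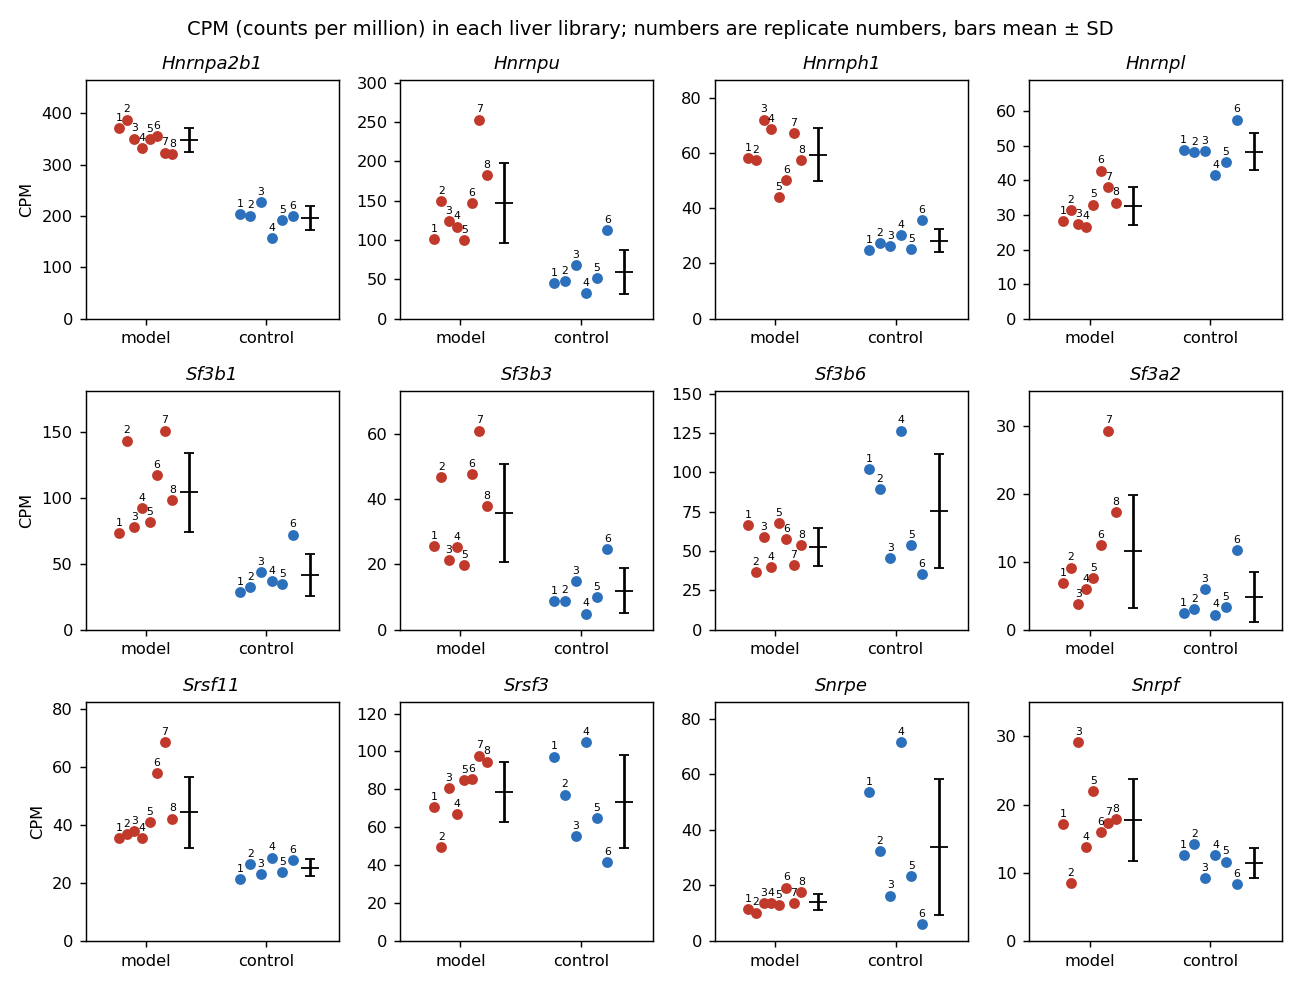
CPM of 12 splicing factor genes in each of the 8 model (red) and 6 control (blue) libraries, with replicate numbers beside the points and the mean ± SD as bars. Hnrnpa2b1, Hnrnph1, Sf3b1 and Srsf11 separate the groups in these TMM-scaled values. Hnrnpl is lower in model livers, and control libraries 1, 4 and 6 spread Snrpe from 6.13 to 71.8 CPM.

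Within SF3, the rise lay in 4 subunits. Sf3b1, the large scaffold of the SF3B complex that surrounds the branch point adenosine, had 72.9, 95.1 and 151 CPM in model livers, against 28.5, 35.5 and 72.0 CPM in control livers. The lowest model library and the highest control library, number 6, were nearly level, and the ranges did not overlap (log2 fold change 1.33, SE 0.24, edgeR adjusted p 0.000234). Sf3b3, the propeller-shaped partner of Sf3b1, had 19.7, 31.8 and 60.9 CPM in model livers, against 4.92, 9.40 and 24.7 CPM in control livers. Control library 6 again overlapped the model range, and the log2 fold change was 1.56, the largest of the 56 genes (SE 0.35, edgeR adjusted p 0.00138).

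Sf3b4, which contacts RNA upstream of the branch point, had 4.90, 10.0 and 29.3 CPM in model livers, against 1.54, 4.93 and 9.14 CPM in control livers. The groups overlapped, with 4 of 8 model libraries above the highest control (log2 fold change 1.38, SE 0.45, edgeR adjusted p 0.0174). Sf3a2, a subunit of the SF3A complex that joins U2 to the branch region, had 3.73, 8.40 and 29.3 CPM in model livers, against 2.22, 3.19 and 11.7 CPM in control livers. Its groups overlapped widely, with 3 of 8 model libraries above the highest control (log2 fold change 1.25, SE 0.47, edgeR adjusted p 0.0358). Without model libraries 7 and 8 neither gene was called (Sf3b4 0.84, edgeR adjusted p 0.0982, and Sf3a2 0.69, edgeR adjusted p 0.192), and 2 SF3 genes were higher, Sf3b1 and Sf3b3. The Sf3a2 call was also lost in 8 of the 14 fits that left out a single library.

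The remaining SF3 genes were not called. Sf3a1 (0.61, SE 0.35), Sf3a3 (0.43, SE 0.32) and Sf3b2 (-0.07, SE 0.23), which encode further subunits of the SF3A and SF3B complexes, varied widely, and Sf3a3 reached 34.1 CPM in model library 7 beside a model median of 11.0 CPM and a control median of 12.0 CPM. The small subunit genes had negative values, with log2 fold changes of -0.36 for Sf3b5 (SE 0.27) and -0.52 for Sf3b6 (SE 0.27, edgeR adjusted p 0.12). Sf3b6, which encodes the p14 protein that touches the branch point adenosine, had the highest level of the family per length, 18.5 CPM per kb in model and 26.5 CPM per kb in control livers. It had 36.6, 55.7 and 68.0 CPM in model livers, against 35.5, 71.7 and 127 CPM in control livers, and all 8 model libraries lay below the control median.

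Of the SRSF genes, Srsf11, Srsf7 and Srsf2 rose, 30.0% of those tested, near the 26.6% called higher among all genes tested. Srsf11, whose product localises with U2 snRNP factors, had 35.5, 39.5 and 68.8 CPM in model livers, against 21.3, 25.2 and 28.7 CPM in control livers. Its groups did not overlap (log2 fold change 0.82, SE 0.19, edgeR adjusted p 0.00169). Srsf7, which also acts in mRNA export and polyadenylation site choice, had 31.2, 49.7 and 59.5 CPM in model livers, against 20.7, 29.0 and 47.8 CPM in control livers. The groups overlapped, with 4 of 8 model libraries above the highest control (log2 fold change 0.68, SE 0.22, edgeR adjusted p 0.0157). Srsf2, also called SC35, had 50.4, 76.2 and 125 CPM in model livers, against 44.7, 50.1 and 61.0 CPM in control livers. Its ranges overlapped in the lower model libraries, with 6 of 8 above the highest control (log2 fold change 0.66, SE 0.20, edgeR adjusted p 0.0113).

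The other SRSF genes were not called. Srsf5 was the most abundant of the family per length, at 28.6 CPM per kb in model and 24.0 CPM per kb in control livers. It had 82.4, 101 and 169 CPM in model livers, against 83.7, 93.2 and 116 CPM in control livers (log2 fold change 0.25, SE 0.19). Srsf1, the founding member of the family, had a log2 fold change of 0.41 (SE 0.17, edgeR adjusted p 0.0566), and Srsf10 one of 0.32 (SE 0.16). Srsf3, the gene known for hepatocyte maturity, had 78.8 ± 15.8 CPM in model and 73.5 ± 24.5 CPM in control livers (SD, n = 8 and 6), with a log2 fold change of 0.10 (SE 0.22). Srsf9 (0.08, SE 0.20), Srsf4 (0.02, SE 0.23) and Srsf6 (-0.01, SE 0.16) had values close to 0.

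The kinases that act on SRSF proteins showed small differences. Clk2 had 6.58, 10.7 and 17.4 CPM in model livers, against 4.15, 7.71 and 9.51 CPM in control livers, with 4 of 8 model libraries above the highest control. Its log2 fold change was 0.61 (SE 0.25, edgeR adjusted p 0.0496), and the call was lost in 9 of the 14 fits that left out a single library. Clk1, whose own intron retention is known to control its output, had the highest level of the family per length, 5.15 CPM per kb in model and 4.06 CPM per kb in control livers. It had 28.3, 43.7 and 52.6 CPM in model livers, against 28.9, 31.4 and 40.1 CPM in control livers, and 6 of 8 model libraries exceeded the highest control (log2 fold change 0.34, SE 0.17, edgeR adjusted p 0.104). Clk4, the closest relative of Clk1, had 12.3, 22.0 and 28.9 CPM in model livers, against 12.7, 16.3 and 22.8 CPM in control livers (log2 fold change 0.34, SE 0.25). Clk3 had 27.2, 30.4 and 34.9 CPM in model livers, against 19.8, 25.2 and 29.5 CPM in control livers (log2 fold change 0.30, SE 0.15, edgeR adjusted p 0.102). Neither was called.

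SNRP genes did not follow the HNRNP genes. Snrpe, an Sm ring protein gene, had 10.2, 13.6 and 19.3 CPM in model livers, against 6.13, 27.9 and 71.8 CPM in control livers. All 8 model libraries were below the control median, and control library 6 was below all of them (log2 fold change -1.27, SE 0.38, edgeR adjusted p 0.0101). The call was lost with limma-voom, where the log2 fold change was -0.85 and the adjusted p 0.102. Its pseudogene Snrpert, a near copy that may share reads with it, was not called, with 5.20 ± 3.02 CPM in model and 6.21 ± 3.16 CPM in control livers (SD, n = 8 and 6). Snrpf, the gene of another Sm ring protein, had 8.49, 17.2 and 29.2 CPM in model livers, against 8.37, 12.1 and 14.2 CPM in control livers. The groups overlapped, with 6 of 8 model libraries above the highest control (log2 fold change 0.63, SE 0.24, edgeR adjusted p 0.0361). Its call was lost when model library 3 or 5 or control library 3 or 5 was left out.

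The other Sm ring genes were not called. Snrpd3 had the highest level of the family per length in controls, 22.2 CPM per kb in model and 29.9 CPM per kb in control livers, with 49.3, 77.2 and 103 CPM in model livers, against 54.1, 105 and 142 CPM in control livers. All 8 model libraries were below the control median, without passing the test (log2 fold change -0.43, SE 0.23, edgeR adjusted p 0.133). The log2 fold changes were -0.71 for Snrpg (SE 0.40), 0.12 for Snrpb (SE 0.17), 0.08 for Snrpd1 (SE 0.28) and 0.08 for Snrpd2 (SE 0.36). Those of the U1 protein genes Snrpa and Snrpc were 0.22 (SE 0.17) and -0.24 (SE 0.21). Those of the U2 protein genes Snrpa1 and Snrpb2 were -0.34 (SE 0.27) and -0.22 (SE 0.24). Snrpn, the imprinted gene that is used mainly in brain, had 2.21 ± 0.898 CPM in model and 2.77 ± 0.563 CPM in control livers (SD, n = 8 and 6).

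**Figure D3:**
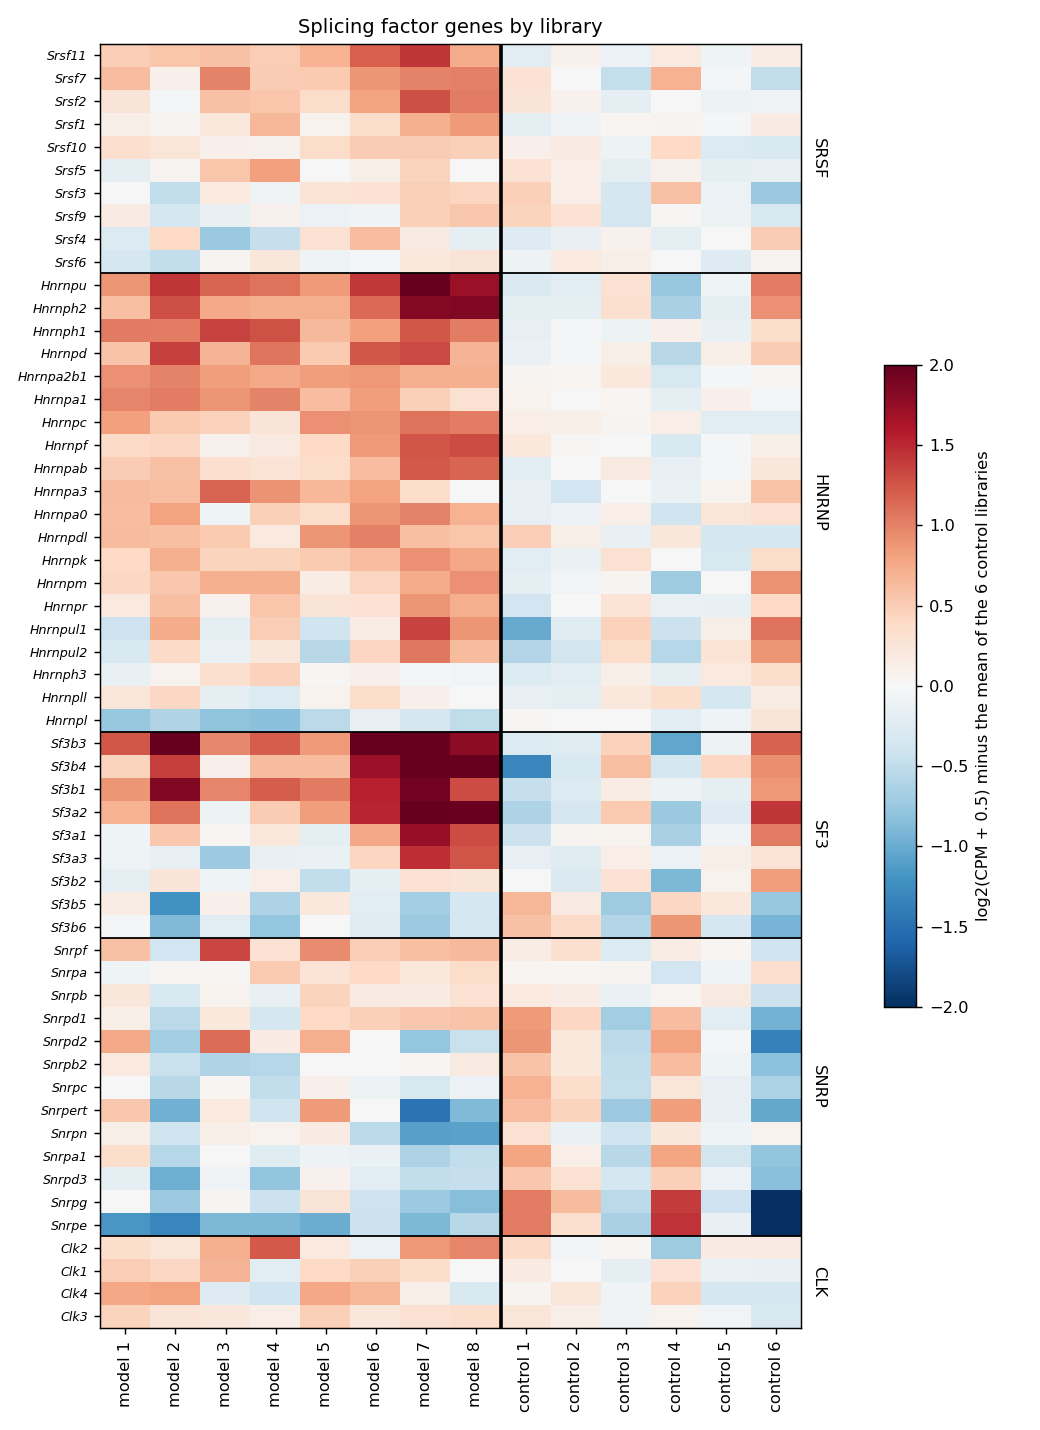
Colours give log2(CPM + 0.5) in each library minus the mean of the 6 control libraries, for the 56 tested genes in rows by family and the 8 model and 6 control libraries in columns. Most HNRNP rows and those of Sf3b1, Sf3b3, Sf3b4 and Sf3a2 are mainly red in the model columns. The rows of these SF3 genes are so most strongly in model library 7. The Hnrnpl and Sf3b6 rows are mainly blue there. Control library 6 is red for most HNRNP and SF3 genes and blue for most SNRP genes.

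Several libraries moved the families together within a group. Control library 6 had the highest control value for 14 of 20 HNRNP and 7 of 9 SF3 genes and the lowest for 11 of 13 SNRP genes. Model library 7 had the highest model value for 8 HNRNP and 7 SF3 genes. Control libraries 1 and 4 had SNRP sums of 594 and 583 CPM, against 206 CPM in control library 6, while the model sums were 234 to 448 CPM. The SNRP sum averaged 355 ± 74.9 CPM in model and 410 ± 161 CPM in control livers (SD, n = 8 and 6). The SF3 sum averaged 314 ± 69.4 CPM in model and 233 ± 28.9 CPM in control livers, the SRSF sum 562 ± 91.6 CPM in model and 446 ± 52.7 CPM in control livers, and the CLK sum 105 ± 11.2 CPM in model and 82.2 ± 10.0 CPM in control livers.

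Gene length moved with these shifts across all genes tested. A length trend was computed for each library as the median log2 deviation of the longest 20% of genes, from each gene's mean over the 14 libraries, minus that of the shortest 20%. It was -0.54 to 1.17 in model libraries, highest in number 7, and -1.09 to 0.90 in control libraries, lowest in number 1 and highest in number 6. The median log2 fold change of all genes tested was 0.28 in the longest 20% (exonic length 7305 bases or more) and -0.23 in the shortest 20% (2124 bases or less). The families differ in length, with a median exonic length of 5897.5 bases for tested HNRNP genes and 2159 bases for SNRP genes, beside 4171 for all genes tested. In a fit with a smooth per-library offset for exonic length and GC content, 14 HNRNP genes were higher and 1 lower, with a median log2 fold change of 0.65. In that fit 4 SF3 genes were higher, the SNRP median was -0.028, and 1 SNRP gene was higher and 1 lower. The part of the length trend in the family differences was not tested beyond that fit.

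**Figure D4:**
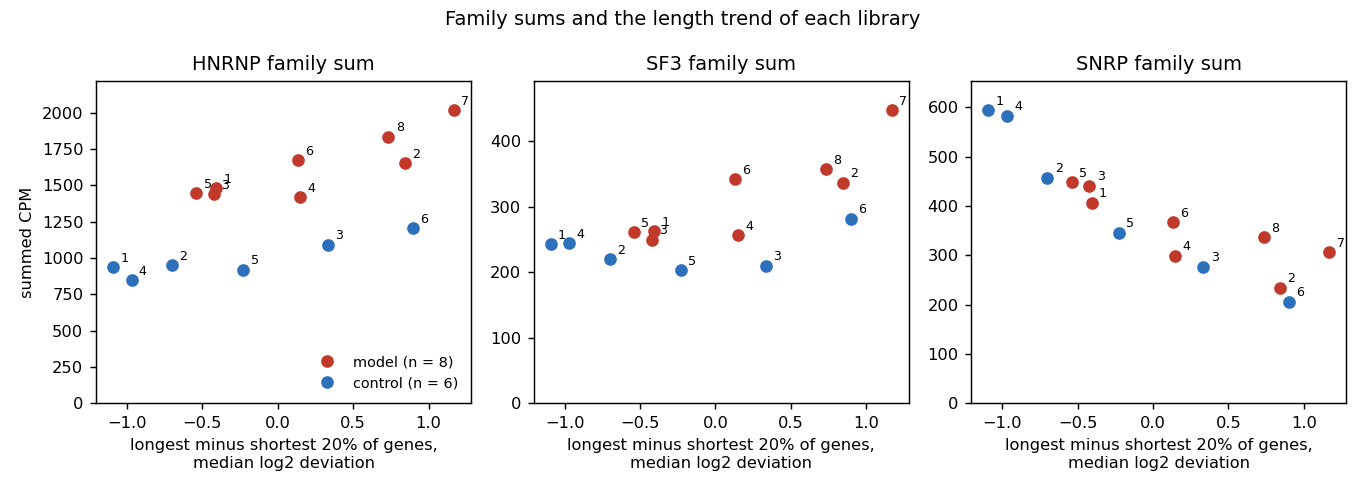
Summed CPM of the HNRNP, SF3 and SNRP genes in each library against that library's length trend (median log2 deviation of the longest minus the shortest 20% of genes), with replicate numbers beside the points. In these TMM-scaled values all model HNRNP sums, from 1421 to 2017 CPM, lie above all control sums. The SNRP sums fall along 1 band with the trend in both groups.

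The rest of the splicing machinery was read from 8 lists of other genes, of which 148 of 155 could be tested. Of these 44 were higher (29.7%) and 20 lower (13.5%) in model livers, close to the 26.6% and below the 21.3% of all genes tested, and the lists differed in direction. With library totals as the scaling, 19 were higher and 30 lower, and without control library 6, 62 of 149 were higher and 21 lower. SR-related and exon recognition factors had 12 of 19 higher and 0 lower, and 6 higher and 0 lower with library totals. Among them Tra2a, a partner of SRSF proteins at exonic enhancers, averaged 42.3 ± 6.50 CPM in model and 15.4 ± 3.35 CPM in control livers (SD, n = 8 and 6; log2 fold change 1.46, SE 0.18, edgeR adjusted p 4.45e-06). Nktr, an SR-related cyclophilin, averaged 33.4 ± 12.4 CPM in model and 12.6 ± 4.15 CPM in control livers (log2 fold change 1.41, SE 0.27). Branch point and 3′ splice site factors had 5 of 11 higher and 0 lower, or 3 and 0 with library totals, led by Smndc1 (1.34, SE 0.22) and Sf1 (1.27, SE 0.33), whose product first recognises the branch point before SF3B replaces it. Tissue-regulated splicing regulators had 12 of 28 higher and 3 lower, or 4 and 3 with library totals, among them Sfpq (1.79, SE 0.34), the gene of a nuclear RNA-binding protein.

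Esrp2, an epithelial regulator known in mouse to drive the adult splicing pattern of hepatocytes, was lower. It averaged 11.5 ± 6.90 CPM in model and 32.9 ± 10.3 CPM in control livers (SD, n = 8 and 6), with a log2 fold change of -1.51 (SE 0.33, edgeR adjusted p 0.000987). Khdrbs3, a STAR family RNA-binding protein gene, also fell, with a log2 fold change of -0.78 (SE 0.20). Another list held LSM ring proteins, the SMN complex, which assembles the Sm ring, and other factors of that assembly. It had 0 of 18 genes higher and 8 lower, with a median log2 fold change of -0.50. The lower genes were 4 of the 7 LSM ring genes (Lsm1, Lsm2, Lsm6 and Lsm7) and 4 of the other 11 (Gemin2, Gemin6, Gemin7 and Clns1a). Gemin2, the SMN complex subunit that holds the Sm proteins during assembly, averaged 7.36 ± 2.67 CPM in model and 29.8 ± 14.4 CPM in control livers and did not overlap between groups (log2 fold change -2.02, SE 0.32, edgeR adjusted p 4.98e-05). Lsm7 had a log2 fold change of -1.24 (SE 0.45), and its call was lost in 6 of the 14 fits that left out a single library (edgeR adjusted p up to 0.0991) and with limma-voom. The list also had 0 higher and 8 lower with the offset for length and GC content, and 0 and 9 with library totals. Leaving out each single library gave 0 higher and 7 to 8 lower. With the replicate number as a block it had 0 higher and 5 lower.

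U1, U2, U5 and tri-snRNP proteins outside the SNRP symbols had 9 of 30 higher and 3 lower, or 4 and 7 with library totals. Leaving out control library 1, 2 or 4 left 1 lower, and leaving out control library 6 made 12 higher and 6 lower. Prpf3, a tri-snRNP protein gene, rose by 1.56 (SE 0.31) on the log2 scale, while the U5-linked genes Txnl4b and Txnl4a had values of -1.41 (SE 0.30) and -0.85 (SE 0.32). The Txnl4a call was lost in 9 of the 14 fits that left out a single library (edgeR adjusted p up to 0.122) and with limma-voom. Prp19, Bact and step II factors, which act on the assembled spliceosome, had 2 of 22 higher and 4 lower, or 1 and 8 with library totals. Without control library 6 the list had 7 higher and 4 lower, and without control library 4 it had 2 lower. Dhx38, an RNA helicase of the second step, averaged 22.5 ± 6.87 CPM in model and 7.88 ± 4.33 CPM in control livers (SD, n = 8 and 6; edgeR adjusted p 0.00063). Rbm22 rose by 0.80 (SE 0.23), and Ppil1 and Bud31 had values of -1.13 (SE 0.29) and -0.80 (SE 0.27), of which the Bud31 call was lost without control library 1 or 4 (edgeR adjusted p up to 0.0562). The exon junction complex and nonsense-mediated decay list had 3 of 15 higher and 2 lower, with Smg1, the kinase of Upf1, at 1.16 (SE 0.29), Casc3 at 1.15 (SE 0.32), Smg6 at -0.83 (SE 0.28) and Upf3b at -0.71 (SE 0.25). Without control library 6 this list had 5 higher and 0 lower, with Smg6 at -0.54 (edgeR adjusted p 0.103) and Upf3b at -0.54 (edgeR adjusted p 0.0948). The Upf3b call was also lost without model library 6 or control library 1 or 3, and with library totals 1 gene of the list was higher and 2 were lower. Of the SR kinases and import factors 1 of 5 was higher, Prpf4b (0.58, SE 0.18), and 0 were lower. With library totals 0 were higher and 1 was lower, and without model library 3 or 4 or control library 6, 2 were higher.

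**Figure D5:**
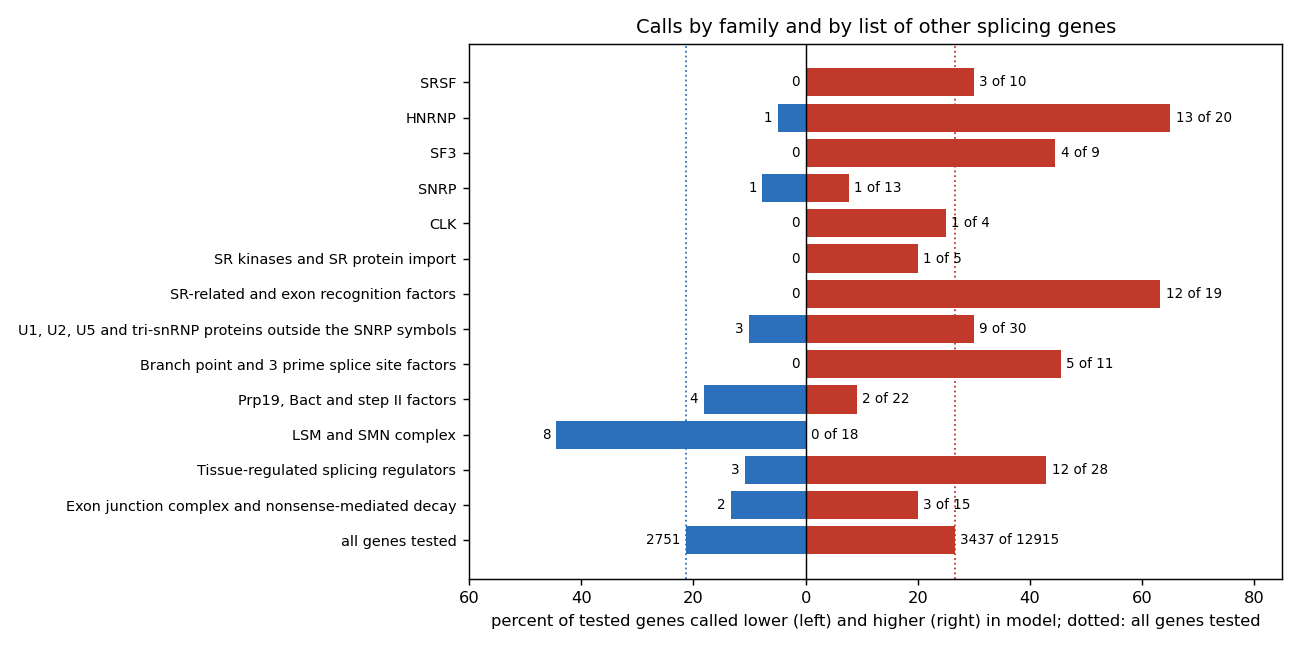
Percent of tested genes called lower (blue, to the left) and higher (red, to the right) in model livers for the 5 families, the 8 lists of other splicing genes and all genes tested, with the counts beside the bars. Dotted lines mark the 26.6% higher and 21.3% lower of all 12915 genes tested. HNRNP (13 of 20) and the SR-related factors (12 of 19) reach farthest to the right, and the LSM and SMN list (8 of 18) farthest to the left.

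Transcripts that mark other cell types and the state of the RNA also differed between the groups. Neutrophil markers were higher for 9 of 9 genes, with sums of 1260 to 2871 CPM in model and 4.15 to 16.6 CPM in control livers, and Ly6g had 0 counts in every control library. Monocyte and macrophage markers were higher for 8 of 9 genes (sums of 420 to 649 CPM in model and 158 to 345 CPM in control livers). T and NK cell markers were higher for 6 of 7 genes (15.5 to 40.6 CPM in model and 2.84 to 10.0 CPM in control livers), and cholangiocyte markers for 5 of 5 (60.1 to 126 CPM in model and 31.2 to 56.4 CPM in control livers). Sinusoidal endothelium markers had 4 higher and 3 lower of 8 (247 to 499 CPM in model and 142 to 193 CPM in control livers), and stellate cell markers 6 higher and 1 lower of 8 (329 to 645 CPM in model and 143 to 203 CPM in control livers). Kupffer cell markers had 3 higher and 2 lower of 9 (308 to 653 CPM in model and 296 to 480 CPM in control livers), B cell markers 1 higher of 4 (10.8 to 36.9 CPM in model and 7.82 to 15.7 CPM in control livers), and cycling cell markers 3 higher and 1 lower of 9 (38.2 to 54.0 CPM in model and 27.7 to 40.3 CPM in control livers). Hepatocyte markers, led by albumin, summed to 76127 to 88135 CPM in model and 49808 to 71199 CPM in control livers, with 3 of 10 higher. Nuclear-retained RNAs were higher for 3 of 3 tested (207 to 927 CPM in model and 66.7 to 173 CPM in control livers), with log2 fold changes of 2.02 for Malat1 (SE 0.47) and 2.03 for Neat1 (SE 0.37). Mitochondrial ribosomal RNA made up 0.82% to 5.79% of the gene counts in model and 0.12% to 1.98% in control libraries. All mitochondrial genes made up 6.46% to 20.8% in model and 6.18% to 8.57% in control libraries, with the highest shares in model libraries 3 (20.8%) and 4 (14.4%). The part of these differences in the splicing factor results was not tested.

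No strand setting is given for the counts, and entries for reads in several genes were left out. Whether reads over bases shared with a gene on the other strand were lost or kept is therefore not known. Some members share exonic bases with such a gene. By gene annotation of GRCm38, this concerned 567 of the 861 exonic bases of Snrpf with Ccdc38, 809 of 2782 of Hnrnpab with Phykpl, 804 of 11599 of Hnrnpu with Cox20, 429 of 2658 of Sf3a2 with Plekhj1, and 460 of 2958 of Srsf2 with Mettl23. It also concerned 1284 of 8450 exonic bases of Clk3 with Edc3, 1532 of 3561 of Srsf4 with Gm12992 and 410 of 3047 of Hnrnpf with 4933440N22Rik. For Hnrnpd it concerned 385 of 7354 with Gm17092, and for Hnrnpk 330 of 6466 with Rmi1. Other overlaps, on either strand, are not all listed here. On the same strand, Hnrnpm shared 1169 of 7956 exonic bases with March2.

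Of the 24 called genes, 20 were called without each single library in turn, and 0 changed sign under any of 26 alternatives. The exceptions were Clk2, Sf3a2, Snrpf and Hnrnpa0, which was not called without model library 2 (0.53, edgeR adjusted p 0.0519). Called under every alternative were 11 genes, namely Hnrnpa1, Hnrnpa2b1, Hnrnpc, Hnrnpd, Hnrnph1, Hnrnph2, Hnrnpl, Hnrnpu, Sf3b1, Sf3b3 and Srsf11. Scaling by library totals in place of TMM factors moved the median of all genes tested to -0.23. With that scaling the family medians were 0.39 for HNRNP, 0.37 for SF3, 0.075 for SRSF, 0.10 for CLK and -0.44 for SNRP, of which the SNRP median alone lay below that of all genes. It made 10 members higher and 7 lower, against 22 and 2. The Hnrnpa0, Hnrnpa3, Hnrnpab, Hnrnpdl, Hnrnpf, Hnrnpk, Srsf2, Srsf7, Sf3a2, Sf3b4, Snrpf and Clk2 calls were lost with it, and Sf3b5, Sf3b6, Snrpc, Snrpd3 and Snrpg were then called lower.

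Control library 6 weighed on the genes near the threshold. Without it, Hnrnpm (0.80, edgeR adjusted p 0.00235), Hnrnpr (0.60, edgeR adjusted p 0.0221), Sf3a1 (0.96, edgeR adjusted p 0.0277) and Srsf1 (0.49, edgeR adjusted p 0.0349) were called higher. Sf3b6 (-0.62, edgeR adjusted p 0.0355), Snrpd3 (-0.52, edgeR adjusted p 0.0378) and Snrpg (-0.89, edgeR adjusted p 0.0208) were called lower, so that 5 members were lower in place of 2, 3 of them SNRP genes.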

How the data were processed

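Liver RNA of 14 mouse samples was measured by mRNA sequencing. The deposited values are raw counts of reads per gene, 1 file per sample. Reads were aligned with HISAT2 to GRCm39, per the submitters' processing notes, while the counting program, the annotation and the use of strand are not given in the sources here. The 5 summary lines that end each file name no gene and were left out of totals and tests. Together they held 27.4% to 45.6% of a library's entries, reads in several genes or aligned to several places included. Reads aligned to several places made up 13.4% to 18.6% of the entries, which can remove reads of genes with near copies, Snrpe and Snrpert included. Among 43 pairs of libraries of a group, chi-square over its degrees of freedom was at least 23.5, so no library was counted as a repeat.

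The test was edgeR 4.0.16 under R 4.3.3 (filterByExpr, TMM factors, robust quasi-likelihood, group alone in the design, Benjamini-Hochberg adjustment over 12915 genes), called at an adjusted p under 0.05. The fit was tested on simulated data. CPM are counts over the TMM-scaled library size, fold changes give model over control, with a standard error (SE) of the log2 fold change over the root of F. Every member is named. Values are given for Clk1 to Clk4, for up to 4 called members per family and direction averaging 5 CPM or more in either group, for the member with the highest CPM per kb, and for up to 2 called genes per direction and list of other splicing genes; other values are there because they bear on a family. Some genes of these lists that the rule names are not reported here. Exonic lengths, GC content and overlaps come from GENCODE annotation of GRCm38 by gene identifier, found for 99.9% of tested genes. The members, lists and motifs were chosen with earlier results of these data known. Alternatives were other scalings, filters and tests (DESeq2 1.42.0, limma 3.58.1), a length and GC offset with 5 spline degrees of freedom, a replicate block and left-out libraries.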

Additional observations from a re-analysis of the deposited data

Results flagged for a closer look

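In control liver, library 6 stood apart from the other 5 for 6 of the genes described. The gap to the nearest other control library, divided by the range of the group, exceeded Dixon's 95% critical value. Chance exceeds that value in about 1 in 20 groups, and 7 of 158 group ranges examined did so, no more than that rate. The 6 flags of control library 6 come from 1 library and are not independent of each other. Hnrnpm had 52.8 CPM in control library 6, against 17.0 to 29.4 CPM in the other controls, and without that library its edgeR adjusted p was 0.00235 in place of 0.06. Sf3a1 had 18.5 CPM, against 5.40 to 9.30 CPM, and Sf3b1 had 72.0 CPM, against 28.5 to 43.8 CPM. Dhx38 had 15.9 CPM (3.76 to 8.16 CPM in the others), Sfpq 35.7 CPM (9.63 to 17.7 CPM) and Smg1 19.7 CPM (7.96 to 12.2 CPM). The seventh was Prpf4b in control library 4, with 23.8 CPM, against 15.8 to 18.2 CPM in the other controls. Control library 6 also had the highest length trend of the controls, 0.90, and the part of that trend in these values was not tested.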

How the results depend on the processing

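Of the 24 called members, 11 were called under every alternative. With library totals as the scaling, 10 members were higher and 7 lower, with 7 higher in HNRNP, 1 in SRSF, 2 higher and 2 lower in SF3, 0 higher and 4 lower in SNRP and 0 in CLK. With upper-quartile factors, 4 members were lower, 1 of them SF3 and 2 SNRP, and 0 SNRP and 0 CLK genes were higher. DESeq2's size factors in edgeR and the length and GC offset each left 0 CLK genes higher, and without a filter on low counts 0 SNRP and 0 CLK genes were higher. By limma-voom 1 member was lower, and 0 SNRP genes were called in either direction and 0 CLK genes higher. Without model libraries 7 and 8, 2 SF3 genes were higher, and without model libraries 3 and 4, whose mitochondrial shares were the highest, 0 SNRP and 0 CLK genes were. Over the fits without a single library, members called higher numbered 19 to 26 and lower 2 to 5, SF3 lower 0 to 1, SNRP higher 0 to 1, SNRP lower 1 to 3 and CLK higher 0 to 1. The number of all genes called ranged from 2533 to 4427 higher and from 2207 to 3955 lower over the other settings. The cause was not tested.

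Replicate numbers 1 to 6 occur in both groups. Same-numbered libraries did not deviate together, with correlations of -0.34 to 0.36, and 1 of 6 model libraries correlated best with its own number, so the numbers were not taken as pairs. With the replicate block, on 12 libraries, 14 members were higher and 1 lower, with 1 SRSF, 2 SF3, 0 SNRP and 0 CLK genes higher and 0 SNRP lower. With the block and the length and GC offset, 1 member was lower, 2 SF3 and 0 CLK genes were higher and 0 SNRP lower.

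Signs changed only for members that were not called. With library totals the log2 fold changes were -0.18 for Hnrnph3, -0.15 for Hnrnpll, -0.065 for Hnrnpul2, -0.022 for Snrpa, -0.10 for Snrpb, -0.080 for Snrpd1, -0.16 for Snrpd2, -0.086 for Srsf3, -0.24 for Srsf4 and -0.11 for Srsf9. With upper-quartile factors they were -0.056 for Hnrnph3, -0.069 for Hnrnpll, -0.034 for Snrpb, -0.071 for Snrpd1, -0.050 for Snrpd2, -0.051 for Srsf3, -0.15 for Srsf4 and -0.076 for Srsf9. With the length and GC offset they were -0.069 for Hnrnpll, 0.026 for Snrpert, -0.019 for Srsf3 and 0.0077 for Srsf6. With the block they were -0.091 for Sf3a3, 0.11 for Snrpert and -0.021 for Srsf9, and with the block and offset -0.011 for Sf3a3, 0.0080 for Snrpa1, 0.22 for Snrpert and 0.012 for Snrpn. Srsf4 was at -0.019 with DESeq2's size factors, -0.019 by DESeq2 and -0.031 by limma-voom. Leaving out 1 library, or model libraries 3 and 4 or 7 and 8 together, gave ranges of -0.015 to 0.22 for Hnrnph3, -0.021 to 0.20 for Hnrnpll, -0.0091 to 0.47 for Hnrnpul2, -0.067 to 0.65 for Sf3a3, -0.22 to 0.18 for Sf3b2, -0.043 to 0.28 for Snrpd1, -0.11 to 0.33 for Snrpd2, -0.48 to 0.049 for Snrpert, -0.10 to 0.19 for Srsf4, -0.064 to 0.044 for Srsf6 and -0.036 to 0.18 for Srsf9. Snrpn, with 207 reads over the 8 model and 201 over the 6 control libraries, rests on few reads.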
